A study of Arabidopsis thaliana with 12 samples.

Results

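Roots of the Arabidopsis mutant slim1-1 were compared with roots of its parental line P, both grown with sufficient sulfate (S1500). The comparison used the 4 arrays whose titles name these groups, 2 of slim1-1-S1500 and 2 of P-S1500, out of 12 arrays in the series. The other 8 arrays cover a second mutant line, slim1-2, on S1500 and all 3 lines on low sulfate (S15). They enter here for the shared estimate of the spread and for the comparisons that show where slim1-1 on S1500 differs.

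P is Columbia with a T-DNA in which the SULTR1;2 promoter, that of a sulfate uptake gene, drives GFP. Per the labels, slim1-1 and slim1-2 were isolated from it because their GFP fluorescence did not respond to sulfur limitation, so all groups carry the reporter. Each mutant is represented by 1 line. Plants were 10 days old and grew upright on agar with sucrose. S1500 agar had 1500 µM MgSO4 added and S15 agar 15 µM, on top of about 10 µM of residual sulfate from the agar. The labels call the 2 arrays of a group biological replicates and do not say that they came from separate cultures, so p-values measure only the spread between these samples.

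SLIM1, also named EIL3, belongs to the EIN3-like transcription factors and controls transcriptional responses of roots to sulfur limitation. Sulfate taken up by roots is activated by ATP sulfurylase, reduced to sulfide and built into cysteine, from which methionine, glutathione and the sulfur-rich glucosinolates are made. On low sulfate, plants raise uptake and the release of sulfur from storage compounds and lower glucosinolate synthesis. On sufficient sulfate these responses are normally low, and the comparison of slim1-1 with P on S1500 asks what differs in this mutant line without sulfur limitation. Other differences between the slim1-1 line and P cannot be told apart from effects of the mutation. SLIM1 itself, the SULTR genes and the APR genes were not analysed here, because the probe annotation used names no probe set for them.

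Each value is the log2 of an Affymetrix signal after quantile normalization between arrays. It follows the amount of RNA of 1 probe set from array to array, and levels of different probe sets are not compared. Median deposited signals of the slim1-1 arrays were 84.1 and 100.1, and those of the P arrays 82.8 and 65.65. Between 77.0% and 81.75% of probe sets lay above the highest bacterial control on an array. Across tested probe sets, which are not independent replicates, the slim1-1 arrays correlated at 0.9866, the P arrays at 0.9882, and arrays of different lines at 0.9782 to 0.9854. The ratio of 3′ to 5′ GAPDH signal, a measure of RNA integrity, was 0.633 and 0.705 on the slim1-1 arrays and 0.738 and 0.865 on the P arrays. The same ratio for ubiquitin was 2.675 and 2.746 in slim1-1 and 2.86 and 2.638 in P. The ratio of 3′ to middle signal for actin was 1.604 and 1.289 in slim1-1 and 1.505 and 1.35 in P. The ubiquitin and actin ratios overlapped between the lines. The part of RNA integrity in the results was not tested.

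Few transcripts passed the test between slim1-1 and P on sufficient sulfate, and most of those that passed were lower in the mutant. With 2 arrays per group, differences can also go undetected. Of 13647 tested probe sets, 59 (0.432%) passed an adjusted p of 0.05 in limma, 9 of them higher (0.0659%) and 50 lower (0.366%) in slim1-1. At an unadjusted p under 0.05 there were 1365. The median change over all tested probe sets was 0.01 on the log2 scale, and the 59 called changes had a median size of 0.94 with a range from 0.51 to 3.26. At least a 2-fold difference was seen for 4 of the higher and 23 of the lower probe sets. The arrays of both lines did not overlap for any of the 59, as was also the case for 5968 (43.7%) of all tested probe sets. Only 17 of the 59 have 1 named gene, 4 higher and 13 lower, and these genes are described here.

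The number of calls depended on single arrays. It was 17 without P-S1500 replicate 1, 100 without P-S1500 replicate 2, 26 without slim1-1-S1500 replicate 1 and 32 without slim1-1-S1500 replicate 2. Without normalization between arrays 11 were called, 5 higher and 6 lower, and the median change over all tested probe sets was then 0.34.

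**Figure D1:**
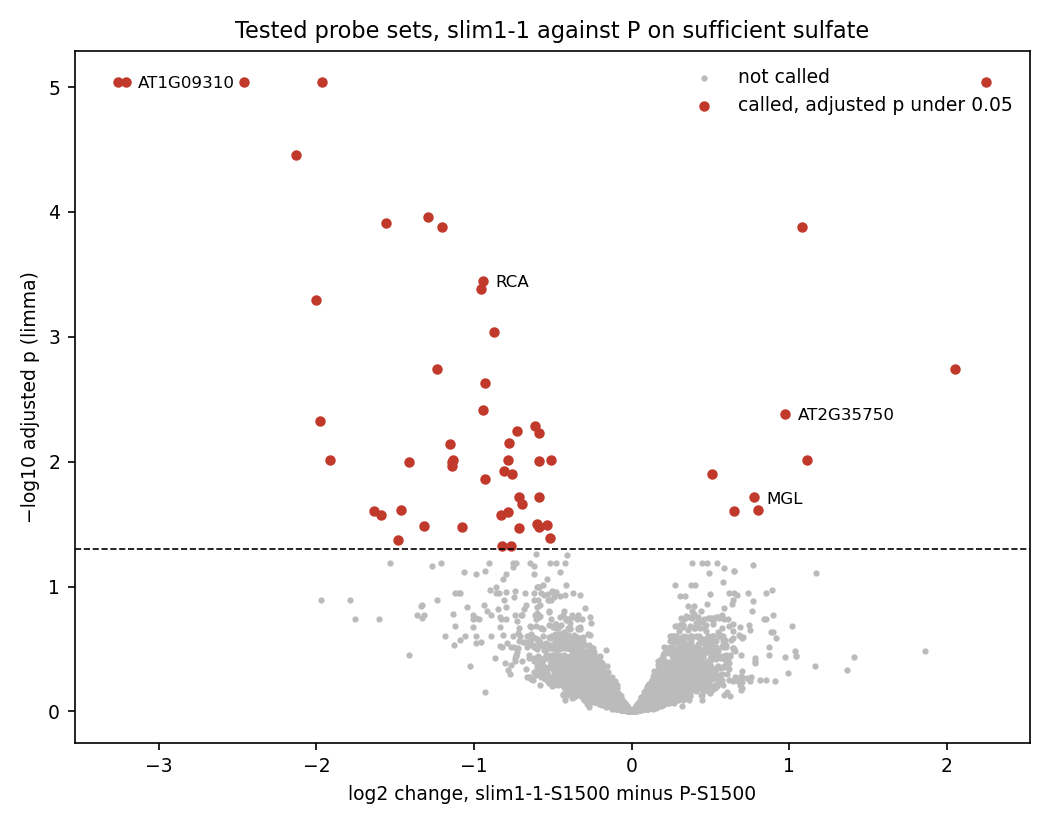
Change in slim1-1 against P on S1500 (log2, horizontal) and −log10 of the adjusted limma p (vertical) for the 13647 tested probe sets, 1 point each. The called probe sets (red) reach −3.26 on the lower side and 2.25 on the higher side, with AT1G09310 at −3.21.

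The lowest named transcript was AT1G09310, which encodes a protein of the DUF538 family whose role is not described here. Its log2 levels were 4.51 and 4.34 in slim1-1 roots, against 7.87 and 7.41 in P roots. The deposited signals were 23.0 and 20.8 on the slim1-1 arrays and 212.9 and 124.3 on the P arrays. Both slim1-1 arrays lay far below both P arrays and still above the control bound. That bound was 3.72 on slim1-1-S1500 replicate 1 and 4.25 on replicate 2, so replicate 2 lay only just above it. The difference was −3.21 ± 0.241 (SE), a 9.25-fold lower level (limma adjusted p = 9.14e-06). The slim1-2 roots on S1500 had 7.93 and 7.29, close to P, and the direct difference of slim1-1 minus slim1-2 was −3.18 (adjusted p = 6.51e-06 in limma). On S15 AT1G09310 had log2 levels of 3.98 and 3.81 in slim1-1 against 7.64 and 7.36 in P, so the 4 arrays of slim1-1 and the 4 of P did not overlap over both media. Only 1 of the 2 slim1-1-S15 arrays was above the control bound for AT1G09310. The slim1-2 roots on S15 had 3.91 and 3.75, both below the control bound, so on S15 AT1G09310 was low in both mutants. Of the 17 named genes, AT1G09310 alone was also called without normalization between arrays, with a change of −2.90. Adding a pseudocount of 64 to the signals brought it to −1.62, still called, and brought the dim genes PSAE-1 and HPR, described next, to −0.89 and −0.64, also still called. Without normalization the median change over all tested probe sets was 0.34, and the other lower named genes were at −1.30 to −0.28 (APS4 at −0.29, AT5G40670 at −0.28) and the higher ones at 0.85 to 1.31.

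Among the named genes, 6 nuclear ones work in photosynthesis, a grouping made after the calls were seen. They encode subunits of the photosystems, the antenna and the cytochrome b6f complex, or enzymes that work beside them in leaves. Root plastids carry out little photosynthesis, although roots grown in the light can hold some green plastids. In slim1-1 roots RCA, PSAE-1, PSBW, LHCB4.2, AT2G26500 and HPR fell, and none of the photosynthesis genes named in the annotation rose.

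RCA encodes rubisco activase, which keeps the carbon-fixing enzyme active. Its log2 levels were 8.69 and 8.84 in slim1-1 and 9.84 and 9.57 in P. Both slim1-1 arrays were lower than both P arrays by more than the distance between replicates. The difference was −0.94 ± 0.102 (SE), 1.92-fold lower (limma adjusted p = 0.000356).

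PSAE-1 encodes subunit E of photosystem I, on the side where electrons pass to ferredoxin. It had log2 levels of 5.24 and 5.71 in slim1-1 and 7.19 and 7.03 in P. The groups were clearly apart although the slim1-1 arrays differed from each other. PSAE-1 was 3.1-fold lower in slim1-1, with a change of −1.63 ± 0.297 (SE) and a limma adjusted p of 0.0247. PSBW, a small subunit of photosystem II, had 6.71 and 6.64 in slim1-1 and 8.16 and 7.50 in P. Here the P arrays spread more than the slim1-1 arrays. Its change was −1.15 ± 0.175 (SE), 2.23-fold lower, at a limma adjusted p of 0.00725. LHCB4.2, an antenna protein of photosystem II, had 6.84 and 6.58 in slim1-1 and 7.68 and 7.41 in P, a change of −0.83 ± 0.153 (SE) with limma adjusted p = 0.0266.

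AT2G26500 encodes the PetM subunit of the cytochrome b6f complex, which links the photosystems. Its log2 levels were 6.74 and 6.72 in slim1-1 and 7.49 and 7.50 in P, so replicates lay much closer together than the lines did. The change was −0.76 ± 0.126 (SE; limma adjusted p = 0.0125). HPR encodes the peroxisomal hydroxypyruvate reductase of photorespiration. It had 5.63 and 5.87 in slim1-1 and 7.12 and 6.67 in P. HPR changed by −1.14 ± 0.186 (SE), 2.21-fold lower, with limma adjusted p = 0.0109.

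Of the nuclear genes whose symbols begin with PSA, PSB or LHC, a group chosen after the values were seen, 8 are named here and 7 were tested. All 7 had changes below 0, from −1.63 to −0.41 with a median of −0.53, where 6436 of all tested probe sets (47.2%) were below 0. The 3 called ones are PSAE-1, PSBW and LHCB4.2. The other 4 did not pass the test. PSBY was at −0.53 (limma adjusted p = 0.128), PSAN at −0.49 (0.238), LHCB4.1 at −0.45 (0.286) and PSB27 at −0.41 (0.483). The arrays of both lines did not overlap for any of the 7, in a comparison in which 20.5% of all tested probe sets did not overlap and were lower in slim1-1.

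The summed normalized signal of these 7 genes was 846.2 and 869.2 on the slim1-1-S1500 arrays and 1525 and 1273 on the P-S1500 arrays. The arrays of slim1-2-S1500 had 1558 and 1530. Both slim1-1 arrays thus lay below all arrays of the other lines on S1500. On S15 the sums were 975.6 and 783.1 in slim1-1, 973.9 and 1001 in slim1-2 and 1165 and 1164 in P. RCA, LHCB4.1 and LHCB4.2, the tested markers of green tissue among 33 entries of that list, summed to 790.9 and 843.3 in slim1-1-S1500 and 1499 and 1310 in P-S1500. None of these markers was at 0 on any of the 4 arrays, and 2 of the 3 were called lower, beside 0.366% of all tested probe sets. In whole roots, fewer cells of a type and less RNA per cell cannot be told apart. The part of green tissue or green cells in the sampled roots was not tested.

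**Figure D2:**
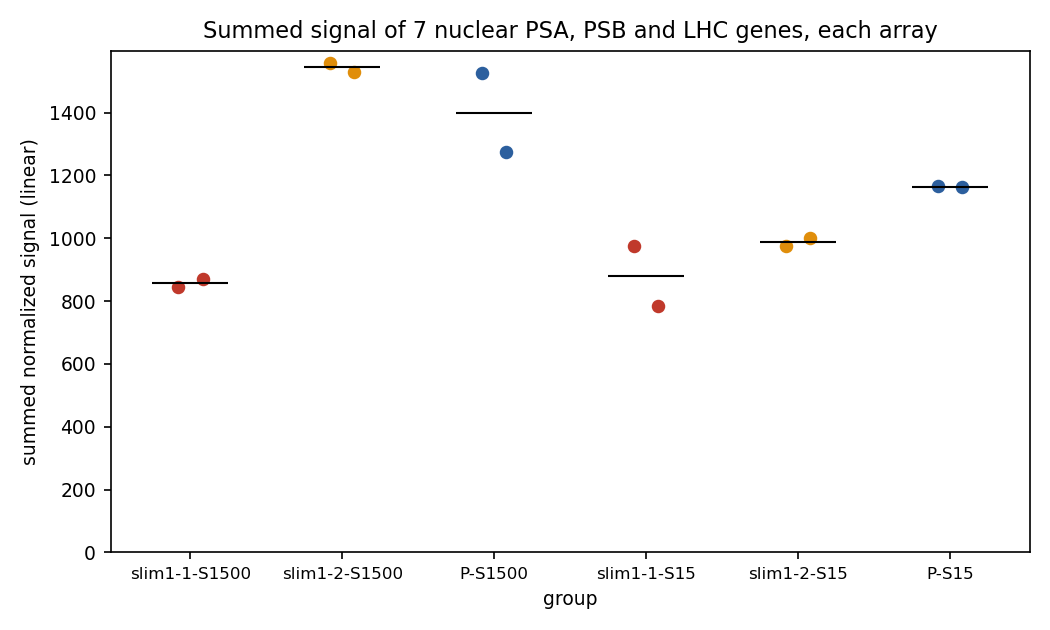
Summed normalized signal of the 7 tested nuclear PSA, PSB and LHC genes (vertical, linear scale from 0) on each array, 1 point per array with a line at the group mean, by line and medium. On S1500 the slim1-1 arrays lie at 846.2 and 869.2, below the slim1-2 arrays at 1558 and 1530 and the P arrays at 1525 and 1273.

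Genes of the plastid chromosome did not follow the nuclear ones as a group. They encode core subunits of the photosystems, the plastid NDH complex, plastid ribosomes and the plastid RNA polymerase. Of 55 tested plastid-encoded genes, a group chosen after the values were seen, 2 fell, none rose, 36 had changes above 0 and 19 below 0, where 52.8% of all tested probe sets were above 0, 0.366% were called lower and 0.0659% called higher. Their median was 0.22 with a range from −1.59 to 1.37, beside 0.01 over all tested probe sets.

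The 2 called plastid genes were rpoA and ndhC. rpoA, the alpha subunit of the plastid RNA polymerase, had log2 levels of 7.35 and 7.86 in slim1-1 and 8.89 and 9.50 in P. It was 3.01-fold lower, with a change of −1.59 ± 0.293 (SE; limma adjusted p = 0.0267). ndhC, a subunit of the NDH complex of cyclic electron flow, had 7.46 and 7.62 in slim1-1 and 8.61 and 8.74 in P. Its change was −1.14 ± 0.183 (SE), 2.2-fold lower at a limma adjusted p of 0.00999. Neither was called when any 1 of the 4 arrays was left out, with changes from −1.90 to −1.29 for rpoA and from −1.22 to −1.06 for ndhC. At the other end, psbZ of photosystem II was at 1.37 (adjusted p = 0.464 in limma) and accD, a subunit of acetyl-CoA carboxylase, at 1.17 (0.434), neither past the test. For 28 of the 55 plastid genes both slim1-1 arrays were above both P arrays, and for 9 they were below. Over all tested probe sets the arrays did not overlap for 43.7%, and 20.5% did not overlap and were lower in slim1-1.

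**Figure D3:**
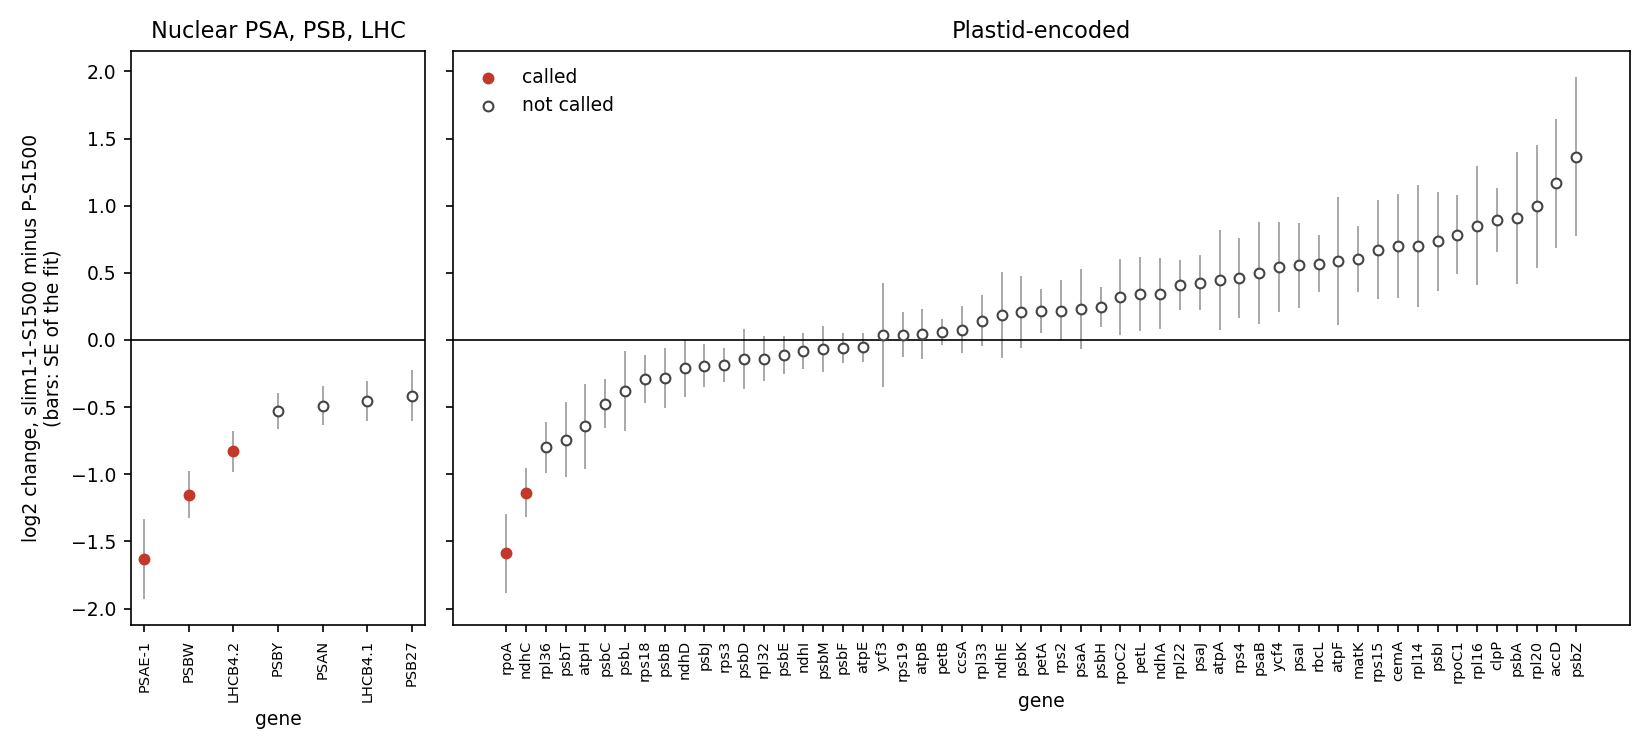
Change in slim1-1 against P on S1500 (log2) for each of the 7 tested nuclear PSA, PSB and LHC genes and each of the 55 tested plastid-encoded genes, with called genes filled and bars for the SE of the fit. All 7 nuclear genes lie below 0 (median −0.53), and the plastid-encoded genes lie on both sides of 0 (median 0.22).

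Among sulfur genes, 1 enzyme of assimilation was lower and 1 of methionine breakdown was higher in slim1-1. APS4, also written ATPS4, encodes an ATP sulfurylase, which activates sulfate in the first step of assimilation. Its log2 levels were 11.03 and 11.23 in slim1-1 roots and 11.65 and 11.77 in P roots. Both slim1-1 arrays were below both P arrays, by more than replicates differed. APS4 changed by −0.59 ± 0.0936 (SE), 1.5-fold lower (limma adjusted p = 0.00991). On S15 the order turned: APS4 had 10.41 and 10.50 in slim1-1 and 9.31 and 9.20 in P, a change of 1.2 (limma adjusted p = 5.47e-06). The line difference on S1500 minus that on S15 was −1.79 (limma adjusted p = 5.7e-06).

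MGL encodes methionine gamma-lyase, which splits methionine and releases its sulfur. MGL had log2 levels of 7.66 and 7.71 in slim1-1 and 6.76 and 7.04 in P. The groups did not overlap, and the P arrays were further apart than the slim1-1 arrays. MGL was 1.72-fold higher in slim1-1, with a change of 0.78 ± 0.136 (SE) at a limma adjusted p of 0.0194. On S15 it had 7.73 and 7.81 in slim1-1 and 7.96 and 8.13 in P, a change of −0.28 that did not pass (limma adjusted p = 0.457). The difference between the media in the line effect on MGL was 1.06 (limma adjusted p = 0.0249). The 4 slim1-1 arrays of both media lay between 7.66 and 7.81.

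The parental response, P-S15 minus P-S1500, shares the P-S1500 arrays with the main comparison, so its values are only set beside it. In that response, with 524 of 13647 probe sets called (3.84%), APS4 changed by −2.46 and MGL by 1.14. SWEET11 (0.97), UGT78D2 (−0.66) and RCA (−0.43) were also called there, with the sign of their slim1-1 change. AT5G40670, described below, went the other way, with 1.18 in that response and a lower level in slim1-1. SDI2 (1.95), BCAT4 (−5.12) and GSTU20 (−1.97), also described below, were called in that response but not in slim1-1 against P on S1500. So was BGLU28 (7.70), fitted with P-S1500 values below the control bound. The same held for UGT74C1 (−2.22), UGT74B1 (−0.93), APS3 (0.75), CBL (−0.56), SIR (−0.50), EXPA7 (0.76) and EXPA18 (0.78).

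The other sulfur genes named here did not pass the test on S1500. BGLU28, a beta-glucosidase known from sulfur-starved plants, had 4.35 and 4.56 in slim1-1 and 3.93 and 3.27 in P. Both P arrays were below the control bound for BGLU28, so only a limit on the fold can be given. The slim1-1 mean was 1.54-fold above the mean P bound, and the difference did not pass (limma adjusted p = 0.112). The slim1-1 arrays were themselves close to the bound, with 4.56 on replicate 2 where the bound was 4.25. On S15 BGLU28 was at −3.74 in slim1-1 against P, and the line difference on S1500 minus that on S15 was 4.60 (limma adjusted p = 9.64e-07), fitted with the P-S1500 values below the bound. SDI2 (AT1G04770), a sulfur deficiency marker, had 8.18 and 7.76 in slim1-1 and 8.23 and 7.86 in P, with a 95% interval of the difference from −0.39 to 0.24. SIR, the sulfite reductase, was at −0.16 (limma adjusted p = 0.699), APS3 (ATPS3), a second ATP sulfurylase, at 0.01 (0.986) and CBL, the cystathionine beta-lyase of methionine synthesis, at 0.01 (0.983). For CBL the interval of the difference ran from −0.17 to 0.19.

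By list, 1 of 3 tested genes of sulfate assimilation fell (APS4) and none rose, with a median change of −0.16. Among 3 tested sulfur deficiency genes 1 rose (MGL) and none fell. Of 4 tested genes of methionine metabolism, MGL was the 1 that rose, and the median was 0.04. Over all tested probe sets 0.0659% were called higher and 0.366% lower.

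Genes of aliphatic glucosinolate synthesis, which make defence compounds from methionine, gave no call. Of the 5 tested genes none passed, all 5 were below 0, and their median was −0.15. BCAT4, the aminotransferase that starts methionine chain elongation, had 11.11 and 11.07 in slim1-1 and 11.24 and 11.19 in P, and its interval ran from −0.36 to 0.10 (limma adjusted p = 0.744). UGT74B1, which glucosylates the glucosinolate core, was at −0.19 (limma adjusted p = 0.614) and UGT74C1 (AT2G31790) at −0.15 (0.783). GSTU20, a glutathione S-transferase of the pathway, had 8.75 and 8.70 in slim1-1 and 9.18 and 9.05 in P, and its change of −0.39 did not pass (limma adjusted p = 0.22).

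The line difference of 2 glucosinolate genes depended on the medium. For BCAT4 the difference on S1500 minus that on S15 was −1.36 (limma adjusted p = 0.00041), and on S15 BCAT4 was higher in slim1-1 by 1.24. For GSTU20 the same contrast was −0.83 (limma adjusted p = 0.0457).

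Of the remaining named genes, 3 were lower and 3 higher in slim1-1. AT5G40670 encodes a PQ-loop membrane protein related to cystinosin, the animal exporter of cystine from lysosomes. It had log2 levels of 8.72 and 8.66 in slim1-1 and 9.34 and 9.27 in P. Its replicates lay close together beside the line difference of −0.61 ± 0.0891 (SE; limma adjusted p = 0.00519). On S15 AT5G40670 had 8.92 and 8.87 in slim1-1 and 10.48 and 10.49 in P, a larger change of −1.59 (limma adjusted p = 1.51e-07). The difference between the media was 0.97 (limma adjusted p = 0.00173).

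UGT78D2 adds glucose to flavonols and anthocyanins at the 3-O position. Its log2 levels were 7.80 and 7.44 in slim1-1 and 8.53 and 8.28 in P, a change of −0.78 ± 0.143 (SE; limma adjusted p = 0.0255). It was the only tested gene of the flavonoid list. AT3G57450 had 9.08 and 9.16 in slim1-1 and 10.18 and 9.58 in P. Its change of −0.76 ± 0.153 (SE) had a limma adjusted p of 0.047.

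AT2G35750, annotated as a transmembrane protein, was the highest named gene, with 8.04 and 7.96 in slim1-1 and 7.08 and 6.97 in P. The replicates of each line lay close together. It was 1.97-fold higher, a change of 0.97 ± 0.137 (SE; limma adjusted p = 0.00413), and was also higher on S15, by 0.78 (0.00713). SWEET11 encodes a sucrose exporter that loads the phloem in leaves. It had 7.58 and 7.36 in slim1-1 and 6.83 and 6.81 in P, a change of 0.65 ± 0.118 (SE; limma adjusted p = 0.0246). Without 1 array its change ran from 0.54 to 0.76. AT5G19120, of the aspartyl protease family, had 10.19 and 10.21 in slim1-1 and 9.67 and 9.71 in P, 1.42-fold higher (limma adjusted p = 0.0125). On S15 AT5G19120 had 9.54 and 9.62 in slim1-1 and 9.66 and 9.74 in P, and the difference between the media was 0.63 (limma adjusted p = 0.0346).

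Of the 17 named genes, 15 lost their call without at least 1 of the 4 arrays, and all 17 kept their sign wherever they were tested. RCA stayed called whichever array was left out. AT1G09310 stayed called without either slim1-1 array and could not be tested without either P array, because it then missed the filter on low values. AT2G35750 lost its call only without slim1-1-S1500 replicate 1, where its change was 0.93 (limma adjusted p = 0.0671).

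Of the others, PSAE-1, rpoA, ndhC, AT2G26500 and SWEET11 were not called when any 1 of the 4 arrays was left out. Their changes then ran from −1.87 to −1.39 for PSAE-1 and from −0.77 to −0.75 for AT2G26500. MGL (0.64 to 0.80), AT5G19120 (0.49 to 0.52), PSBW (−1.19 to −0.82), LHCB4.2 (−0.96 to −0.69) and AT3G57450 (−0.81 to −0.47) were not called without slim1-1-S1500 replicate 1, slim1-1-S1500 replicate 2 or P-S1500 replicate 1. HPR lost its call without slim1-1-S1500 replicate 1 (−1.02) and without P-S1500 replicate 1 (−0.91). UGT78D2 and AT5G40670 lost theirs without slim1-1-S1500 replicate 2 (−0.60 and −0.58) and without P-S1500 replicate 1 (−0.66 and −0.58). APS4 lost its call without slim1-1-S1500 replicate 1 (−0.49), P-S1500 replicate 1 (−0.65) or P-S1500 replicate 2 (−0.53). In all, 4 named genes kept their call without slim1-1-S1500 replicate 1, 5 without slim1-1-S1500 replicate 2, 2 without P-S1500 replicate 1 and 10 without P-S1500 replicate 2.

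Markers of root cell types gave no called difference, with few members measured. Of 3 tested root hair genes none passed, with a median of −0.13. EXPA7, an expansin of growing root hairs, was at −0.13 (limma adjusted p = 0.822). EXPA18, another root hair expansin, had 7.66 and 7.55 in slim1-1 and 7.76 and 7.70 in P. PYK10, the abundant beta-glucosidase of ER bodies in the cortex and epidermis, had 12.75 and 12.66 in slim1-1 and 12.90 and 12.84 in P (limma adjusted p = 0.322). The endodermis was represented by GSO1 (SGN3) at 0.08, the meristem by AUR1 at 0.13 and the cortex by 2 genes with a median of −0.15, none called. Markers of the stele and the root cap were not tested.

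Other lists held no called gene. None of 10 tested glutathione S-transferases passed, with a median of −0.02, and none of 4 myrosinase and ER body genes, with a median of −0.10, none of 3 auxin genes (0.02) and none of 3 redox genes (−0.16). EIN3, the ethylene factor related to SLIM1, was at −0.12 (limma adjusted p = 0.737). STZ, a zinc finger gene of rapid stress responses, was at −1.33 ± 0.338 (SE) and did not pass (limma adjusted p = 0.14).

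**Figure D4:**
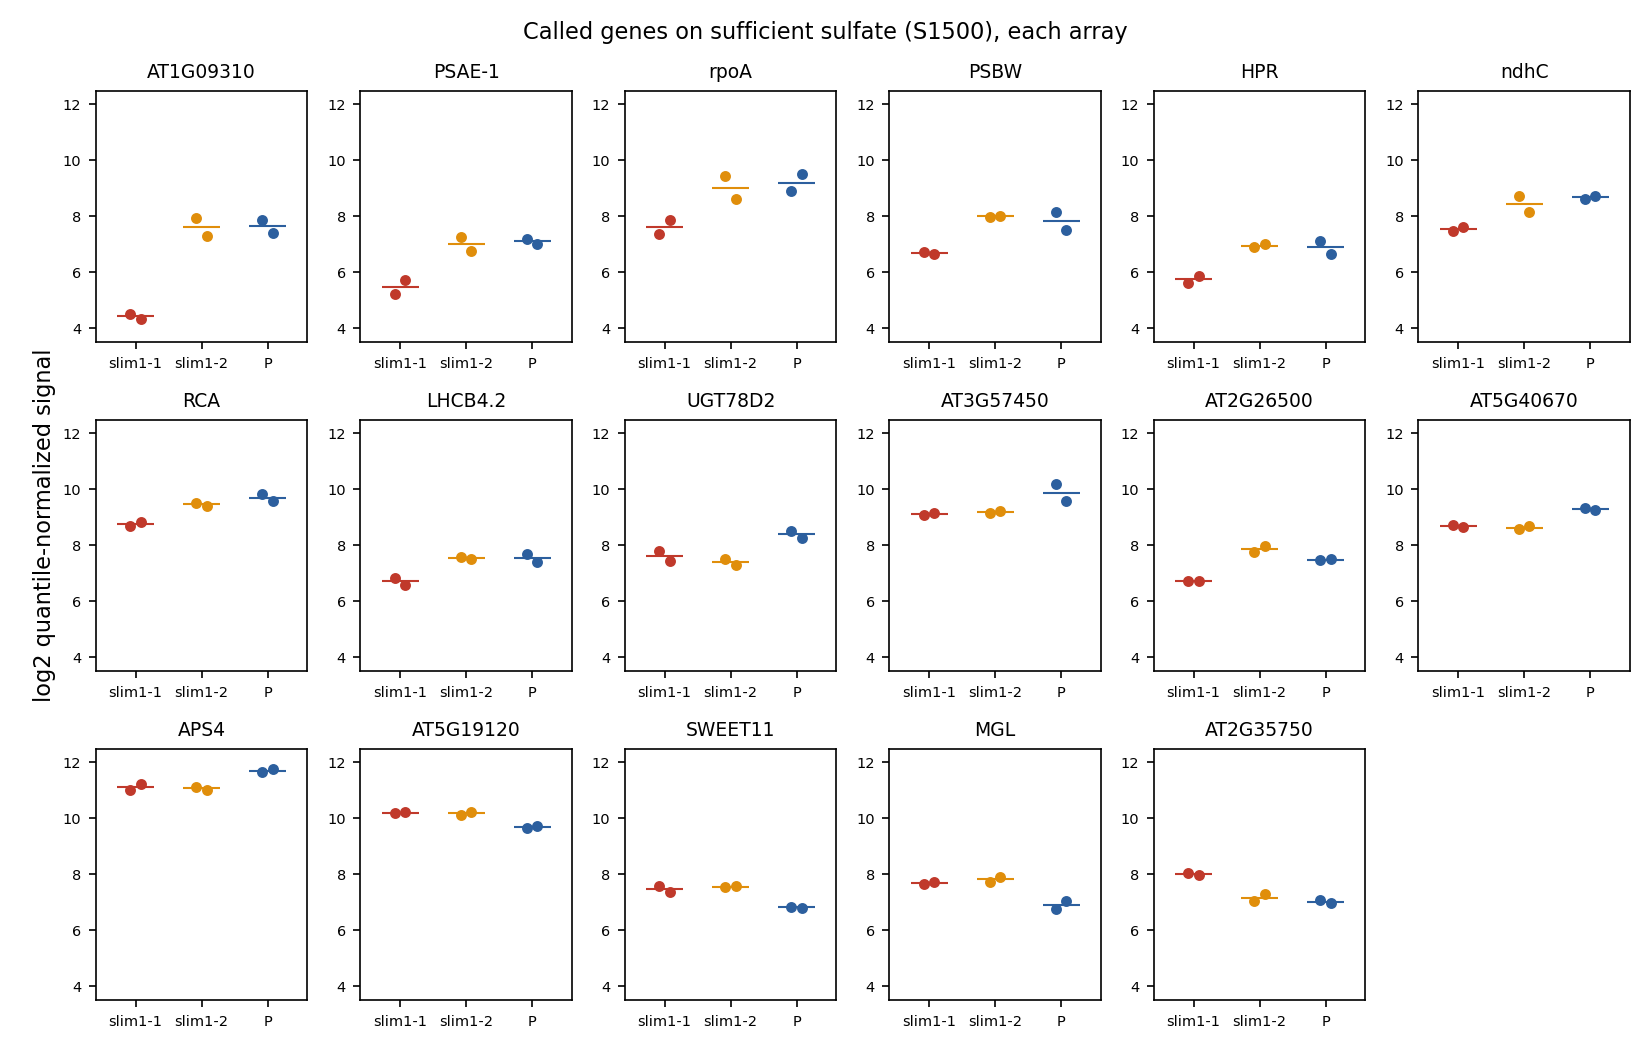
Log2 normalized signal of the called named genes on the S1500 arrays, 1 point per array with a line at the group mean, slim1-1, slim1-2 and P from left to right. In each panel the slim1-1 and P arrays do not overlap, and slim1-2 lies near P for the photosynthesis genes and near slim1-1 for APS4, MGL and AT5G40670.

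The arrays on S15 are separate samples and show which differences between slim1-1 and P recurred. Both tests use the same estimate of the spread for a probe set, so calls on S15 are not independent of calls on S1500. On S15, 219 of 13647 probe sets (1.6%) were called, 57 higher (0.418%) and 162 lower (1.19%) in slim1-1. Of the 59 called on S1500, 49 had the same sign on S15, among them 46 of the 50 lower ones and 3 of the 9 higher ones. Over all 13647 tested probe sets, 6466 were below 0 on S15 and 7179 above 0. The share of all tested probe sets with the same sign on both media was not counted. Both lists shared 23 calls of the same sign, out of 59 on S1500 and 219 on S15, and 3 further probe sets were called with opposite signs, APS4 among them. The median change on S15 was −0.61 for the probe sets lower on S1500 and −0.22 for those higher on S1500.

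The photosynthesis genes varied in this respect. RCA was called lower on both media, with −0.65 on S15 (limma adjusted p = 0.003), as was LHCB4.2 with −1.11 (0.000985). PSBW was at −0.21 on S15 (0.735) and PSAE-1 at −1.23 (0.0569). All 7 tested nuclear PSA, PSB and LHC genes were below 0 on S15 as well, with a median of −0.31 and 1 called. Of all 13647 tested probe sets, 6466 were below 0 on S15 and 1.19% were called lower. For none of RCA, PSAE-1, PSBW, LHCB4.2, AT2G26500 and HPR did the test of the difference between the media pass. Its adjusted p in limma ran from 0.209 for PSBW to 0.931 for PSAE-1, and the interval for PSBW ran from −1.48 to −0.42. Over all probe sets that test called 57 (0.418%).

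On S15 some of these genes were also lower in slim1-2, in a comparison that shares the P-S15 arrays with slim1-1 and called 211 of 13647 probe sets (1.55%). RCA was at −0.53 in slim1-2 against P on S15 (limma adjusted p = 0.0192) and LHCB4.2 at −1.24 (0.000482). PSAE-1 at −0.70, HPR at −0.62, PSBW at 0.005 and AT2G26500 at 0.004 did not pass.

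**Figure D5:**
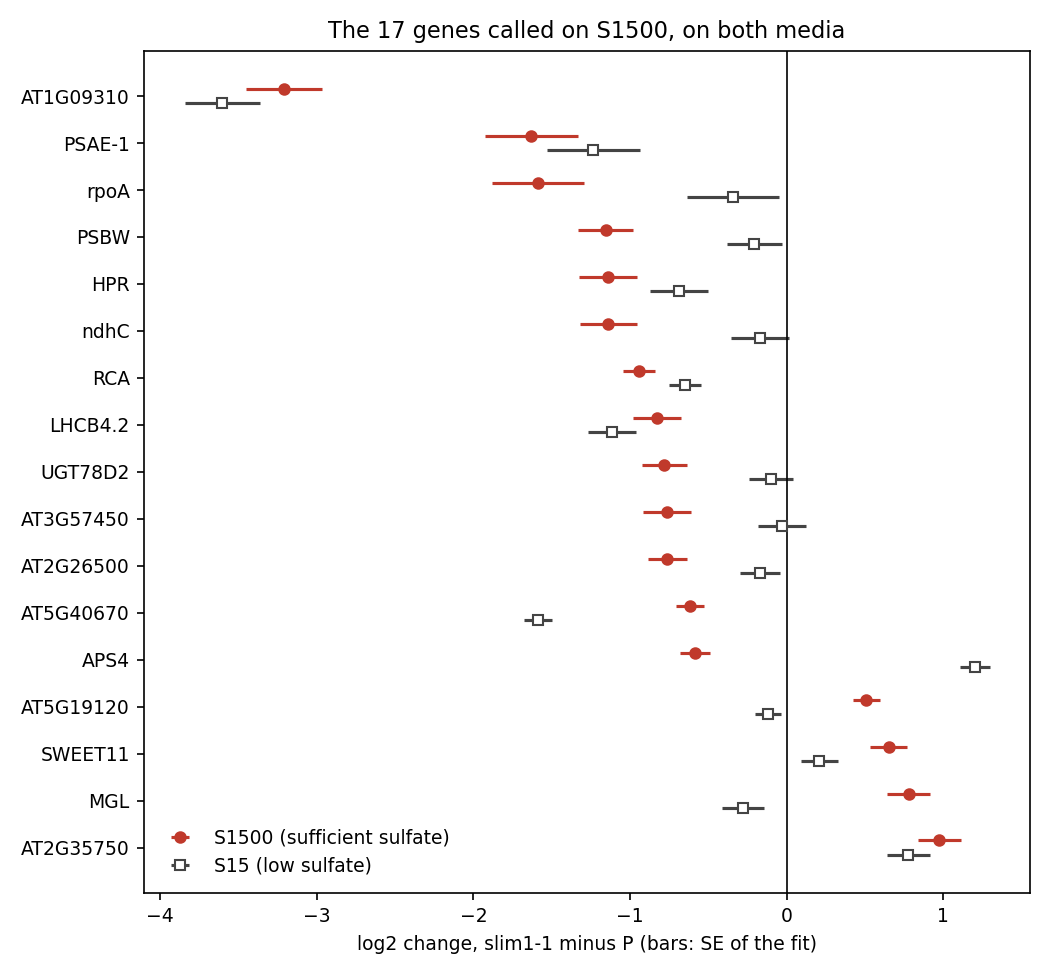
Change in slim1-1 against P (log2, horizontal) on S1500 (filled circles) and S15 (open squares) for the 17 named genes called on S1500, 1 row per gene, with bars for the SE of the fit. AT1G09310 lies far below 0 on both media, and APS4 lies at −0.59 on S1500 and 1.2 on S15.

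The direct comparison of slim1-1 with slim1-2 on S1500 separated the named genes called against P into those in which the mutants differed and those in which no difference was detected. It uses the same slim1-1-S1500 arrays by which these genes were called against P, so it is not a separate test of them. A shift of those arrays moves both comparisons the same way. The direct comparison called 231 of 13647 probe sets (1.69%), 71 higher (0.52%) and 160 lower (1.17%) in slim1-1. Besides AT1G09310, the direct change was −0.71 for RCA (limma adjusted p = 0.00193), −1.54 for PSAE-1 (0.0148), −1.33 for PSBW (0.000923), −0.82 for LHCB4.2 (0.0118), −1.14 for AT2G26500 (0.000193) and −1.20 for HPR (0.00339). RCA, for example, had 8.69 and 8.84 in slim1-1 and 9.53 and 9.41 in slim1-2. The 7 tested nuclear PSA, PSB and LHC genes were chosen after their values on these slim1-1 arrays were seen. Among them 6 were called lower in slim1-1 than in slim1-2, with a median of −0.82, so these calls are not separate support. The plastid genes rpoA (−1.42, limma adjusted p = 0.0238) and ndhC (−0.91, 0.0206) also differed, while AT2G35750 was higher in slim1-1 by 0.83 (0.00509).

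For APS4, MGL, AT5G40670, AT5G19120, SWEET11, UGT78D2 and AT3G57450 no difference between the mutants was detected. APS4 had 11.03 and 11.23 in slim1-1 and 11.13 and 11.02 in slim1-2, and the 95% interval of the difference ran from −0.15 to 0.26. For MGL it ran from −0.44 to 0.15, for AT5G40670 from −0.13 to 0.25 and for AT5G19120 from −0.16 to 0.20. For SWEET11 it ran from −0.34 to 0.17, for UGT78D2 from −0.09 to 0.52 and for AT3G57450 from −0.40 to 0.26. The corresponding limma adjusted p-values were between 0.629 and 0.968. Against the same P arrays, slim1-2 was at −0.64 for APS4, 0.92 for MGL, −0.67 for AT5G40670 and −1.0 for UGT78D2. Both comparisons use the P-S1500 arrays, so a shift of those arrays moves both mutants the same way.

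Of the genes not called between slim1-1 and P, 4 that were named whatever their values differed between the mutants. BCAT4 was higher in slim1-1 than in slim1-2 by 0.91 (limma adjusted p = 0.00029), with 11.11 and 11.07 against 10.20 and 10.15. UGT74B1 was higher by 0.60 (limma adjusted p = 0.0128). EXPA18 was lower in slim1-1 than in slim1-2, with a difference of −0.71 (limma adjusted p = 0.00501), and so was LHCB4.1 with −0.69 (0.0296).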

How the data were processed

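Total RNA of roots was labelled with biotin and hybridised to Affymetrix arrays, 2 per group in 6 groups. The deposited values are intensity values (linear scale) that the authors computed in MAS5, according to the submitters' processing notes, whose version and scaling target were not stated. Signals under 1 were set to 1, log2-transformed and quantile-normalized, since array medians ran from 6.04 to 7.45 (log2). From the 22810 probe sets, 64 controls were dropped, and the 13647 with a mean above the 40th percentile (5.77) were tested. limma 3.58.1 in R 4.3.3 fitted 1 mean per group to 12 arrays (eBayes with intensity trend; residual degrees of freedom 6, prior 7.76). All p-values are two-sided with Benjamini-Hochberg adjustment over all tested probe sets, and a probe set was called at 0.05. The procedure was tested on simulated data. The control bound is the highest of 27 Bacillus control probe sets on an array.

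In the probe annotation 13513 probe sets have 1 gene, 503 have several and 8730 are not listed. Of the 13513, 13436 matched RefSeq (TAIR10.1). Named are called single-gene probe sets without array overlap, the 15 highest and 15 lowest where there are more, called list members, up to 2 unnamed called probe sets per direction, and a fixed set of sulfur, root hair and green tissue genes. Members, gene lists (23, with 506 entries, 17 with a tested member) and tests were chosen with earlier results of these data known. The number of arrays limits the precision. Alternatives were another centring or none, pseudocounts of 16 and 64, other filters, no intensity trend, a replicate block, fewer arrays in the fit, values raised to the control bound, and leaving out each array.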

Additional observations from a re-analysis of the deposited data

Results flagged for a closer look

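Among the called named genes and the fixed set, 14 differed between the mutant lines on S1500, by the direct limma test of slim1-1 minus slim1-2. The test reuses the slim1-1-S1500 arrays by which the called genes were picked. Over all tested probe sets that test called 231 of 13647, and genes outside this set are not listed here. The values were −3.18 for AT1G09310, −1.54 for PSAE-1, −1.42 for rpoA, −1.33 for PSBW, −1.20 for HPR, −1.14 for AT2G26500, −0.91 for ndhC, −0.82 for LHCB4.2, −0.71 for RCA, −0.71 for EXPA18 and −0.69 for LHCB4.1. They were 0.60 for UGT74B1, 0.83 for AT2G35750 and 0.91 for BCAT4. Of these 14, BCAT4, UGT74B1, EXPA18 and LHCB4.1 were not called between slim1-1 and P.

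In the same set of genes, the difference between slim1-1 and P depended on the medium for 7, by the test of the difference on S1500 minus that on S15. Over all tested probe sets that test called 57 of 13647. The values were 4.60 for BGLU28, 1.06 for MGL, 0.97 for AT5G40670 and 0.63 for AT5G19120, and −1.79 for APS4, −1.36 for BCAT4 and −0.83 for GSTU20. APS4 was called in opposite directions on the 2 media. Groups of 2 arrays are too small to look for single arrays that stand apart.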

How the results depend on the processing

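With 2 arrays per group, counts of calls moved with the fit. Without normalization between arrays, slim1-1 against P on S1500 had 11 calls (5 higher, 6 lower) in place of 59 (9 higher, 50 lower), slim1-1 against slim1-2 had 12 (3 higher, 9 lower) in place of 231 (71 higher, 160 lower), and the difference between the media had 9 (9 higher, 0 lower) in place of 57 (43 higher, 14 lower). Without the intensity trend the first count was 33 and the third 35. Only the 4 arrays of slim1-1-S1500 and P-S1500 were left out in turn, and no slim1-2 or S15 array was. Leaving out 1 array gave 17 to 100, 110 to 199 and 38 to 58. With the replicate block the counts were 70, 242 and 59, and AT3G57450 alone of the 17 named genes lost its call. The deviations of same-numbered arrays correlated above 0.1 in 4 of 15 pairs of groups, slim1-1-S1500 with P-S1500 (0.117) among them. With 2 arrays per group and no label of a shared batch, the numbers are not taken as pairs. A fit of the 4 arrays alone called 79 (23 higher, 56 lower) and kept 12 of the 17 named genes, no filter called 45 and kept 9, and median centring called 57 and kept 17. Reversed signs occurred only for genes not called. Without normalization these were AT1G04770 (0.25), BCAT4 (0.16), SIR (0.17), UGT74B1 (0.14), AT2G31790 (0.18), EXPA7 (0.19), EXPA18 (0.20) and PYK10 (0.058). Over the leave-outs AT1G04770 ran from −0.28 to 0.13, APS3 from −0.13 to 0.16, SIR from −0.33 to 0.018, CBL from −0.029 to 0.047 and EXPA7 from −0.37 to 0.10. BGLU28 was called only without P-S1500 replicate 1 (1.19, limma adjusted p = 0.0342). The cause of these shifts was not tested. Genes below the control bound have only a limit.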

Other observations

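Most called probe sets have no gene name here, and 41 of the 59 are not listed in the annotation. The probe set 255997_s_at had the lowest change of all, with 4.55 and 5.25 in slim1-1 and 8.52 and 7.79 in P (−3.26, limma adjusted p = 9.14e-06). The probe set 265560_at had 6.33 and 6.70 in slim1-1 and 9.21 and 8.73 in P (−2.46). The highest was 248676_at, with 7.92 and 7.61 in slim1-1 and 5.33 and 5.70 in P (2.25, limma adjusted p = 9.14e-06), and on S15 it was at −0.45 (0.231). The probe set 252269_at had 5.48 and 6.0 in slim1-1 and 4.23 and 3.16 in P (2.05, limma adjusted p = 0.00182), where only 1 of the 2 P arrays was above the control bound. Against the same P arrays, slim1-2 on S1500 was at 2.39 for 248676_at and 1.36 for 252269_at. It was at 0.18 for 255997_s_at and 0.35 for 265560_at. In the parental response, which shares those P arrays, 248676_at was at 6.1 and 252269_at at 6.3. The difference between the media was 2.70 for 248676_at (limma adjusted p = 1.32e-05) and 2.27 for 252269_at (0.0108).

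In the direct comparison with slim1-2 on S1500, plastid genes other than rpoA and ndhC were also called lower in slim1-1. These were psbT (−1.22), psbB (−1.06), psbH (−0.96) and petB (−0.95), which encode subunits of photosystem II and of the cytochrome b6f complex. Against the same P arrays, slim1-1 was at −0.74 for psbT, −0.28 for psbB, 0.25 for psbH and 0.06 for petB, none called, and slim1-2 was at 0.48 for psbT, 0.78 for psbB, 1.21 for psbH and 1.01 for petB. The direct comparison thus does not show a fall in slim1-1 against P. The median over the 55 tested plastid genes in that comparison was 0.10.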
